A study of Ziziphus nummularia with 2 samples.

Results

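The contigs described here are the assembled transcript stretches whose level in drought was lower than in control by 16-fold or more, in seedlings of Ziziphus nummularia, a wild jujube that grows as a thorny shrub in arid country. RNA came from whole seedlings of the genotype CIAHZN-J, which both conditions share, and gave 1 drought library and 1 control library (0 MPa). The drought labels give 0.3 MPa in the title and -0.3 with a truncated unit in the condition, and are read here as -0.3 MPa. The sources used here do not state the number of seedlings per library, the way the water potential was imposed or its duration. For each contig the ratio was log2((drought FPKM + 1)/(control FPKM + 1)), where FPKM is reads per 1000 bases of contig, scaled to the library total. Contigs with at least 1 FPKM in 1 or both libraries were kept, and those with a ratio of -4 or lower were selected. This gave 112 contigs, out of 59206 kept and 98230 in all, which is 0.189% of those kept.

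Plants take up water along a falling gradient of water potential, so a more negative value outside the root makes uptake harder. In plants in general, water deficit brings stomatal closure and slower growth, and the hormone abscisic acid is a main signal in the response. Transcripts that serve growth and photosynthesis are often lowered under such conditions, while transcripts for protective proteins and compatible solutes are often raised. None of this can be assigned to the contigs here, because the files pair no gene name, description or sequence with a contig number. A transcript level measured in a whole seedling can also be lower because fewer cells carry the transcript or because each cell holds less of it, and these cannot be told apart.

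The members were selected on the 2 values that are described below, and each condition has 1 library. The differences therefore have no replicate check and no p-value, and the fold values describe these 2 libraries. The drought library held 7406331 reads on contigs and the control library 12509371, so a contig of the same FPKM has fewer reads in drought. The library totals by which the authors' FPKM values are scaled, recovered from the files, are larger, at 18689979 for drought and 30922631 for control. What these totals count is not stated, and the 1 FPKM pseudocount and the 15 FPKM level below are on that scale. Intervals are 95% intervals. Those on reads, FPKM and folds cover counting error only, and those on shares of contigs take contigs as independent. None holds replicate spread, since each condition has 1 library. The reads carry no molecular identifiers, so reads copied from 1 molecule cannot be told apart.

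The typical member was well above the median contig in the control and close to undetected in drought. Drought levels ran from 0 to 30.9 FPKM with a median of 0.608 FPKM, and control levels from 15.1 to 675 FPKM with a median of 51.6 FPKM. In drought 65 of the 112 members were under 1 FPKM and 12 were at 10 FPKM or more. The lowest control level among members is set by the rule itself, since with this pseudocount a contig needs 15 FPKM in the control to reach 16-fold even at a drought level of 0. Across members the ranges of the 2 libraries overlapped between 15.1 and 30.9 FPKM. Over all kept contigs the median level was 3.26 FPKM in drought and 3.52 FPKM in the control. Over the 10691 contigs with at least 15 FPKM in the control, the medians were 24.0 FPKM in drought and 27.4 FPKM in the control.

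**Figure D1:**
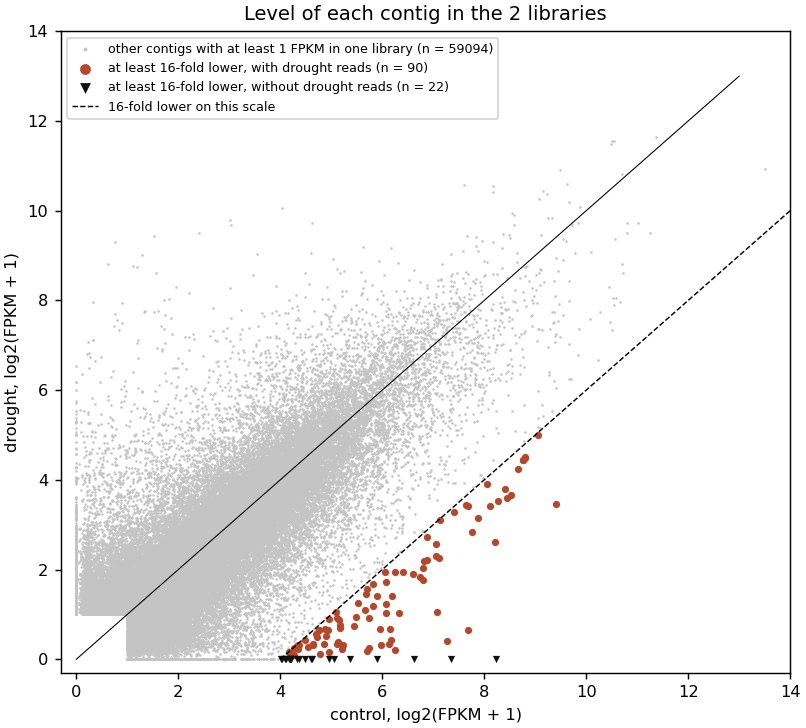
Level of each kept contig in drought (vertical axis) against control (horizontal axis), both as log2(FPKM + 1); the solid line marks equal levels and the dashed line a 16-fold lower drought level. The 90 members with drought reads (circles) lie along and below the dashed line, and the 22 without a drought read (triangles) lie on the horizontal axis from 15.1 FPKM in the control upward.

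By the ratio with the pseudocount, most members sat near the threshold. Without it the fold is larger, most of all where drought levels are low. A contig with 1 drought read and a ratio of -4.0097 was 138-fold lower (24.5 to 5467) without the pseudocount. The median log2 ratio was -4.47, against -0.06 over all kept contigs. A ratio above -4.5 was found in 59 members, and 31 more lay between -4.5 and -5. Another 15 lay between -5 and -6, and 7 members were at or below -6, that is at least 64-fold lower on this scale. The last contigs inside the threshold had control levels of 15.1, 17.1 and 18.3 FPKM, with 0, 1 and 1 drought reads and ratios of -4.009, -4.0097 and -4.01. The first contigs outside it had drought levels of 0.586, 1.61 and 2.22 FPKM and control levels of 24.3, 40.4 and 49.9 FPKM, with ratios of -3.994, -3.987 and -3.98. No gap separates the members from the contigs just outside, of which 211 with at least 15 FPKM in the control were between 8-fold and 16-fold lower.

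**Figure D2:**
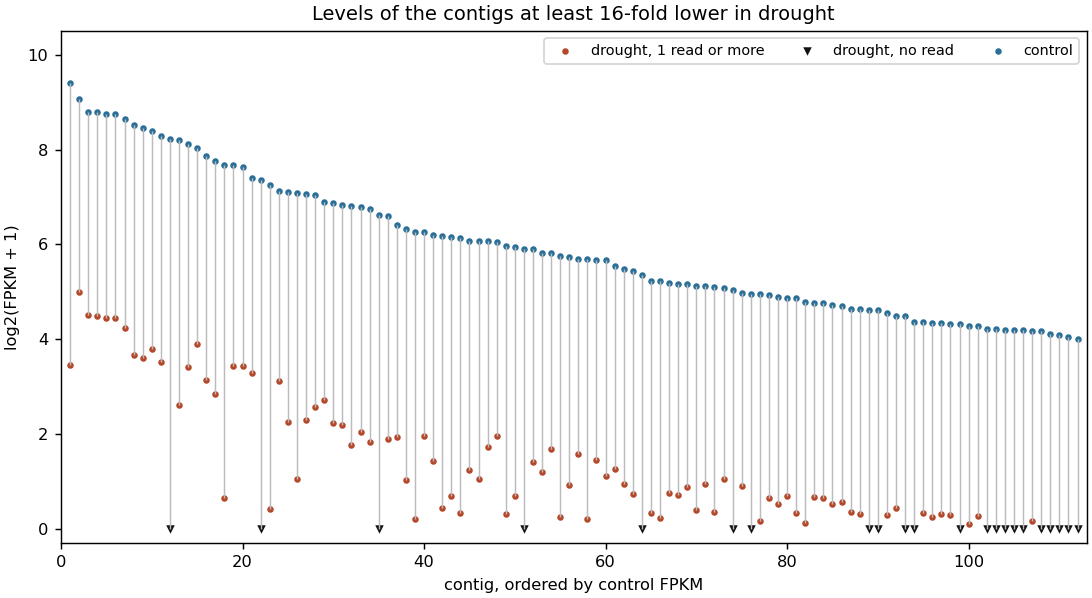
Levels of the 112 members in drought and in control as log2(FPKM + 1), ordered by control level, with a grey line joining the values of 1 contig. Members above 100 FPKM in the control mostly keep a measurable drought level, while triangles, which mark contigs without a drought read, gather at the low end of the control range.

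The members were a small part of each library. Together they held 2855 drought reads, 0.0385% of the drought reads on contigs (0.0372% to 0.0400%, Wilson), and 156824 control reads, 1.25% of the control reads (1.247% to 1.260%). At equal FPKM their control reads would correspond to 94786 reads at the depth of the drought library. Summed over the members, FPKM was 351 in drought and 11793 in the control, which is 33.6-fold lower in drought. As a share of all FPKM they made up 0.0469% in drought and 1.54% in the control.

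A few abundant contigs carried most of these reads. In the control library, 9 members held at least 50% of the members' reads, and 52 held at least 90%. The 34 members with at least 100 FPKM in the control held 79.2% of the members' control reads, and their median drought level was 7.71 FPKM. In drought the 10 members with the most reads held 64.8% of the members' 2855 reads, and a single contig held 15.6%. The median over all members was 3 drought reads.

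The most abundant member in the control was 722 bases long and ranked 50 among all contigs of that library. It had 135 drought reads and 15061 control reads, or 10.004 FPKM in drought (8.39 to 11.8, exact Poisson) and 675 FPKM in the control (664 to 685). This is 67.4-fold lower in drought (56.9 to 80.5, exact binomial interval of the ratio of counts), and the contig ranked 15233 in the drought library. The next in control level, of 772 bases, had 446 drought reads and 12730 control reads, or 30.9 and 533 FPKM. At 17.3-fold lower (15.7 to 19.0) it kept the most drought reads of all members and lies close to the threshold. These were the only members among the 100 highest contigs of the control, while 36 members were among its 1000 highest. None of the members was among the 1000 highest of the drought library, and 6 were among its 10000 highest.

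Members without any drought read and members with reduced reads were then set apart. Of the 112 members, 22 had no read in the drought library (19.6%, 13.3% to 28.0%, Wilson, with contigs taken as independent) and 90 had at least 1. The split depends on depth, level, contig length and the pseudocount: with 0.1 FPKM in its place, 828 of 1214 selected contigs had no drought read. Of the 59206 kept contigs, 1784 had no drought read, each with at least 1 FPKM in the control. The 1762 of them that were not members had at most 14.5 FPKM in the control. This is fixed by the rule, which selects any unread contig at 15 FPKM or more. A single read was all that 17 members had in drought, and 20 had 2 or 3 reads, so that 59 members (52.7%) rest on at most 3 drought reads. Another 17 members had 4 to 10 drought reads, 20 had 11 to 50, and 16 had more.

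The 22 contigs without a drought read had control levels from 15.1 to 299.7 FPKM, with a median of 19.3 FPKM. Their control reads ranged from 73 to 2158 with a median of 171, and at equal FPKM these would have given between 44.1 and 1304 reads in the drought library. Most of them were low in the control, as the rule favours: a member near 15 FPKM must be close to 0 FPKM in drought to be selected. Among members under 30 FPKM in the control, 15 of 36 had no drought read, and among those of 30 FPKM or more it was 7 of 76. With a drought count of 0 taken to allow up to 3 reads, the 22 contigs were at least 14.7-fold to at least 435-fold lower in drought, with a median bound of 34.5-fold. The bound was over 100-fold in 3 of them and at or beyond 16-fold in 21. It leaves out counting error in the control and is less strict than the exact intervals given for the reduced members. For the contig at 14.7-fold, 3 reads are 1.05 FPKM in drought, while the exact Poisson upper limit is 1.29 FPKM. The count of 21 therefore cannot be set beside counts based on those exact intervals. How many of the 22 would stay at or beyond 16-fold by such an interval was not computed.

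The most extreme ratios belonged to contig 446197, of 198 bases, and contig 533993, of 430 bases. Contig 446197 had no drought read where 1109 would be found at equal FPKM, which puts it at least 369.7-fold lower than its 299.7 FPKM in the control. Contig 533993 had no drought read where 1304 would be found, and was at least 435-fold lower than its control level of 162 FPKM. No other contig with at least 100 FPKM in the control lacked drought reads. A contig of 294 bases, with no drought read and 889 control reads (97.8 FPKM), was the next most abundant of these and was at least 179-fold lower.

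The 90 reduced members kept a low level in drought, with a median of 1.06 FPKM and a range from 0.0647 to 30.9 FPKM. Their median control level was 63.6 FPKM. Without the pseudocount they were 17.3-fold to 494-fold lower in drought, with a median of 45.6-fold. The reduction was under 20-fold in 4, from 20-fold to under 50-fold in 45, from 50-fold to under 100-fold in 19, and 100-fold or more in 22. The rule admits none under 16-fold and asks for a larger fold at a lower drought level. These fold values are thus partly set by it. Counting error leaves many of these values wide. The whole interval lay at or beyond 16-fold lower in 67 of the 90, and the lowest bound of any was 10.4-fold. For the 14 contigs without a drought read whose bound is at or under 45.6-fold, a reduction as large as the median of the reduced members could not be told apart from a complete absence.

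Some reduced members kept only a few drought reads although they had many control reads. A contig of 381 bases had 4 drought reads and 2407 control reads, or 0.562 FPKM (0.153 to 1.44) in drought and 204 FPKM (196 to 213) in the control, 364-fold lower (142 to 1336). One of 402 bases had 8 drought reads and 1672 control reads, or 1.06 and 134.5 FPKM, 126-fold lower (63.96 to 293). A contig of 350 bases had 1 drought read and 817 control reads. Its ratio of FPKM was 494-fold lower, with an interval from 88.4 to 19528 that shows how little a single read fixes the value. These contigs differ from the unread ones by a handful of reads.

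**Figure D3:**
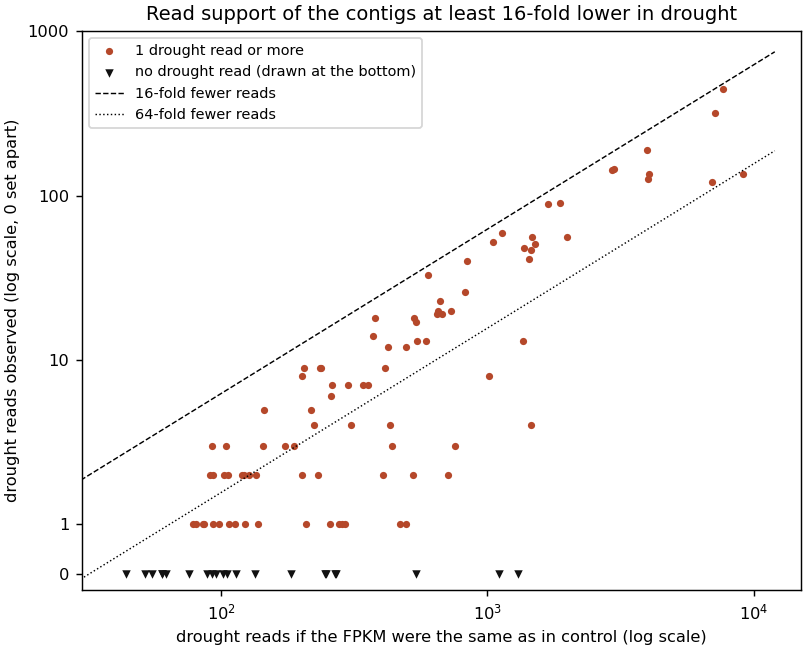
Drought reads observed for each of the 112 members (vertical axis, log scale with 0 set apart) against the drought reads the contig would have at its control FPKM (horizontal axis, log scale), with lines for 16-fold and 64-fold fewer reads. Contigs without a drought read (triangles) mostly lie at the left, where 44.1 to under 300 reads would be found at equal FPKM, and 3 lie farther right, up to 1304.

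Several abundant members had nearly the same values. In the control 4 members lay between 430 and 450 FPKM, a set chosen after the values were seen. They were 353, 226, 492 and 372 bases long, and had drought levels of 21.8, 21.3, 20.7 and 20.9 FPKM and control levels of 443.4, 442.3, 433.0 and 430.3 FPKM. The highest and lowest of them differ by 5.63% in drought and 3.04% in the control. They were 20.3-, 20.8-, 20.95- and 20.6-fold lower in drought, with intervals that all overlap (the widest from 16.8 to 25.9). These 4 contigs, 1443 bases in sum, held 569 drought reads and 19468 control reads, which is 19.9% of the members' drought reads and 12.4% of their control reads. The control spread is bounded by the window chosen, and the selection rule caps the drought level at each control level. The likeness of the drought levels and folds is thus partly set by the rule. Contigs in this window that were not members were not compared. Another 4 members, at 300 to 370 FPKM in the control and also chosen with the values known, were 26.3- to 31.5-fold lower in drought. Their drought levels ran from 10.45 to 12.8 FPKM, and the highest and lowest differ by 22.5% in drought and 18.3% in the control. Just below this window lay contig 446197, at 299.7 FPKM without a drought read. A contig of 1275 bases at 294 FPKM, 57.8-fold lower, lay there too. Whether the contigs of either set come from 1 transcript was not tested, since no sequence was used here, so the 112 contigs cannot be read as 112 genes.

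Members were short compared with other contigs that had at least 15 FPKM in the control. Their median length was 271.5 bases (150 to 3253), against 388 bases for the 10691 contigs with at least 15 FPKM in the control and 333 bases for all kept contigs. Of the members 80.4% were under 500 bases, against 61.9% of contigs with at least 15 FPKM in the control. Length entered the selection only through FPKM. The median was 258 bases in members without a drought read and 274 bases in the reduced ones.

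Only contigs with at least 15 FPKM in the control could become members, and 1.05% of these did. By length, the share was 1.76% of contigs from 150 to under 200 bases (29 of 1649; 1.23% to 2.51%) and 1.54% from 200 to under 300 bases (36 of 2332). It was 0.949% from 300 to under 500 bases (25 of 2633), 0.688% from 500 to under 1000 bases (19 of 2761) and 0.228% at 1000 bases or more (3 of 1316; 0.0776% to 0.668%). The order was the same among contigs of 15 to under 50 FPKM in the control, from 1.28% in the shortest class to 0.173% in the longest. At 50 FPKM or more it was not strict, with 3.29% in the shortest class, 3.60% from 200 to under 300 bases and 0.629% in the longest, which held 1 member of 159. The median log2 ratio of all contigs with at least 15 FPKM in the control was similar across these classes, from -0.32 in the shortest to -0.25 at 500 to under 1000 bases and -0.27 in the longest. Short contigs thus held more of the large differences, while the middle of the distribution moved little with length. These shares are a description and were not tested, because contigs of 1 gene cannot be grouped.

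The 3 members of 1000 bases or more were 3253, 1275 and 1211 bases long. The longest had 13 drought reads and 2242 control reads, or 0.214 FPKM in drought and 22.3 FPKM in the control, 104-fold lower (60.8 to 196). The contig of 1275 bases had 121 drought reads and 11578 control reads, or 5.08 and 294 FPKM, 57.8-fold lower (48.4 to 69.8). The contig of 1211 bases had 13 drought reads and 975 control reads, or 0.574 and 26.0 FPKM, 45.3-fold lower (26.4 to 85.4). Each kept some drought reads, and no member without a drought read was longer than 569 bases. At the same FPKM a longer contig has more reads, so it can keep reads at a level where a short contig has none. None of the 136 contigs of 4000 bases or more was a member. Only 5 of them reached 15 FPKM in the control, and the lowest log2 ratio among the 136 was -2.12.

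**Figure D4:**
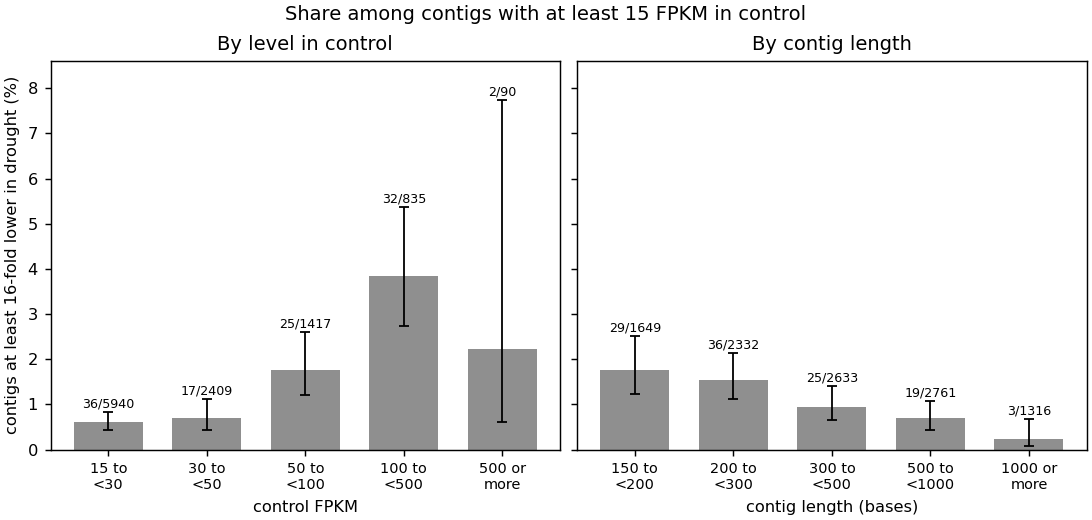
Share of contigs with at least 15 FPKM in the control that were at least 16-fold lower in drought, by control level (left) and by contig length (right); bars start at 0, whiskers are 95% Wilson intervals, and the numbers give members over contigs in the class. The share is 3.83% at 100 to under 500 FPKM against 0.606% at 15 to under 30 FPKM, and goes from 1.76% in the shortest to 0.228% in the longest class.

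Members were also more frequent among contigs of high control level. They made up 0.606% of the 5940 contigs at 15 to under 30 FPKM, 0.706% of the 2409 at 30 to under 50 FPKM, 1.76% of the 1417 at 50 to under 100 FPKM and 3.83% of the 835 at 100 to under 500 FPKM. Above that they were 2 of 90 contigs (2.22%, 0.612% to 7.74%). The rule used the control level, so the order of these shares is partly set by it. At 15 to under 30 FPKM in the control a contig has to be under 1 FPKM in drought to be selected. Over the same classes the median log2 ratio of all contigs went from -0.20 at 15 to under 30 FPKM to -0.76 at 100 to under 500 FPKM and -1.70 at 500 FPKM or more. The classes were set by the control level, which is also the denominator of the ratio, so this order is partly set by the classing as well.

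The opposite set, contigs at least 16-fold higher in drought, held 221 contigs or 0.373% of those kept. For either set the rule needs at least 15 FPKM in the library where its contigs are high. The members and this set had similar median levels where they were high, and the members, fewer in number, held a smaller share of reads. The members had a median of 51.6 FPKM in the control, the library where they are high, and the higher set had 53.5 FPKM in drought. The members made up 1.25% of the control reads, and the higher set 2.87% of the drought reads. No read in the other library was found for 22 of the 112 members (19.6%) and for 33 of the 221 higher contigs (14.9%). The median length was 271.5 bases in the members and 315 bases in the higher set. Both sets were selected on these values and the libraries differ in depth, so these differences were not tested.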

How the data were processed

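Read counts per contig and FPKM were deposited by the authors for 98230 contigs in 1 drought and 1 control library. Per the file headers, the counts are raw reads and the FPKM values were computed by the authors. The submitters' processing notes name Bowtie2 without a role. The assembler, counting program, strand setting and filters were not stated, and near-identical contigs may share reads.

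Dividing count by FPKM gave whole multiples of 1 constant per library (largest deviation 3.97e-05 bases in drought and 3.16e-05 in control), which gave contig lengths in bases (the smallest step taken as 1 base), equal in both libraries for all 81370 contigs read in both. The pseudocount was 1 FPKM, so the change of low contigs is understated. A count of 0 allows up to 3 reads, and the fold bound based on it leaves out counting error in the control. The selection rule, the classes and the alternatives were chosen with earlier results of these data known. The 2 lowest ratios are named by number, and other contigs were described by rank, level or length, some of them after their values were seen. With 1 library per condition no test was run. Python 3.11.15, numpy 2.4.6, pandas 2.3.3, scipy 1.17.1 and matplotlib 3.10.9 were used.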

Additional observations from a re-analysis of the deposited data

How the results depend on the processing

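The 112 contigs depend mainly on the pseudocount. With 0.1 FPKM 1214 contigs were selected, 828 of them without a drought read, holding 0.0697% of drought and 2.17% of control reads, and with 0.5 FPKM 219 and 58, holding 0.0464% and 1.52%. With 5 FPKM 21 and 3 were left, holding 0.0227% and 0.753%. With 0.5 read added in place of the pseudocount, an alternative chosen after seeing the data, 1183 contigs were selected, 740 without a drought read, holding 0.0721% and 2.23%, with a median log2 ratio of -4.70. All 112 were among those selected with 0.1 FPKM, 0.5 FPKM and 0.5 read. For 0.1 and 0.5 FPKM this holds by construction, since a smaller pseudocount only lowers a ratio that is below 0. A threshold sets the count by construction: at 8-fold it was 447, with 63 unread, 0.287% and 4.30% of reads and a median of -3.52, and at 32-fold 22, with 6 unread, 0.00405% and 0.360% and a median of -5.70. An equal FPKM sum (TPM scale) gave 145 contigs, 34 unread, holding 0.0403% of drought and 1.33% of control reads. This scale raises the levels of both libraries, from FPKM sums of 748944 in drought and 764417 in the control, while the pseudocount stays at 1. The pseudocount thus weighs less. Drought, with the smaller sum, is raised slightly more than the control, which by itself raises a ratio and adds no contig. By construction the 33 added contigs therefore come with the lighter pseudocount. The upper quartile left out 1 contig and put the control share at 1.246%, and 111 members were past 16-fold under all 3 other scalings. A minimum of 100 control reads, also chosen after seeing the data, kept 107 contigs, 17 of them unread. The filters on low values kept all 112 by construction, since a member needs 15 FPKM in the control. The median ratio also kept all 112. No paired analysis was possible because drought and control have 1 library apiece, which also leaves no replicate to omit. Depth limits the unread contigs: 3 drought reads correspond to a median of 0.591 FPKM over the members.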
